A study of Solanum tuberosum with 72 samples.

Results

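The spots described here are those whose log2 ratio moved in the cold in potato leaf while the difference stayed small in root. Rows were used where each of the 24 groups of arrays had 2 or more values, which left 13585 of 32448 rows. For each tissue, stress and time, a difference was taken as the mean of the 3 stress arrays minus the mean of the 3 control arrays. A spot was a member where the mean leaf cold difference over 3, 9 and 27 h was at least 0.75 in size on the log2 scale, each root cold difference was under 0.5 in size, and the leaf salt difference at 27 h was under 0.75. The rule gave 28 members, 25 with a positive leaf cold difference and 3 with a negative difference. Members were chosen by the leaf cold, root cold and 27 h leaf salt values, so these are given as a description, and no test of them is relied on. The choice depended on the scaling: after quantile scaling the rule gave 33 positive and 17 negative spots, which shared 5 of the 25 and 1 of the 3.

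Expression was measured in potato (Solanum tuberosum, variety Gilroy) seedlings on 72 spotted arrays with 2 colours. Seedlings grew for 5 weeks from true seed on hydroponic medium at 25 °C with 16 h of light and 8 h of dark. The medium was then exchanged for medium at 4 °C (cold), at 35 °C (heat) or with NaCl (salt), at 100 mM or 150 mM, since the labels give both. Leaf (the aerial tissue) and root were taken at 3, 9 and 27 h, and unstressed controls were taken at the same times. Each sample pooled 6 plants from 2 boxes, and the experiment was run independently 3 times, so that a group is 3 arrays and a replicate number is an experiment. On every array Cy3 carried the sample and Cy5 carried a pool of unstressed plants from 6 boxes, matched in tissue, time and experiment. Control arrays too are therefore ratios against unstressed plants, and since a reference came from the sample's own tissue, the ratios cannot check a tissue against its marker genes.

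The channel in the numerator of the deposited log2 ratio is not stated. A positive difference therefore says only that stress arrays had higher log2 ratios than controls, and can stand for either more or less RNA. In these pooled tissues, fewer cells of a type and less RNA per cell cannot be told apart. The signs of different stresses and tissues can be compared, because the dyes sat on the same sides on all 72 arrays. Measured spots per array ranged from 15580 to 20545, and array medians lay between 0 and 0.014.

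Plants exposed to cold change the expression of many genes, partly through the CBF transcription factors, which activate genes for protective proteins such as dehydrins and for the synthesis of sugars. Cold and salt both disturb the water balance of cells, and many genes that respond to one of them are known to respond to the other. Leaf and root differ in photosynthesis, in cell types and in the stress hormone signals that reach them, so a response can be found in one organ and be small in the other. None of the 28 members is listed in the table that pairs spots of this array with genes, so the members are named by spot number and no role can be given for any of them.

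A spot with a large leaf cold difference seldom stayed within the root limits. Of 720 usable spots past the positive leaf limit, 402 were within the root limit at 3 h, 220 at 9 h and 121 at 27 h, and 51 (7.08%) at all times. Of these 51, 26 had too large a leaf salt difference at 27 h, which left the 25 positive members, or 3.47% of the 720. Of 412 spots past the negative leaf limit, 23 (5.58%) were within the root limits at all times and 3 (0.728%) were members. Of all 13585 usable spots, 55.2% were within the root limits at all times.

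**Figure D1:**
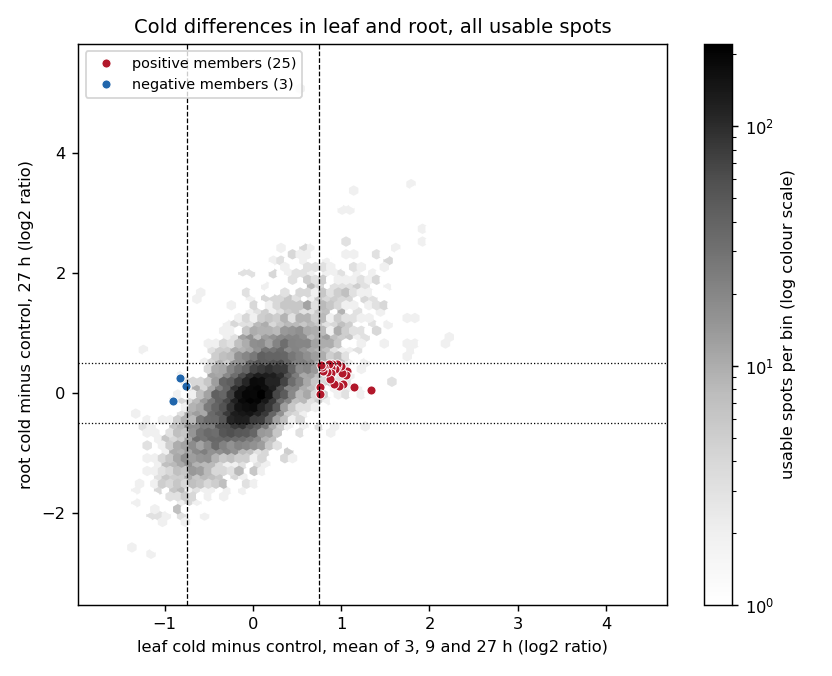
Leaf cold difference (mean of 3, 9 and 27 h) against root cold difference at 27 h, both on the log2 ratio scale, for all 13585 usable spots (grey bins, log colour scale) with the 25 positive members in red and the 3 negative members in blue. Dashed lines mark the leaf limits of 0.75 and dotted lines the root limits of 0.5. Most spots with large leaf differences lie along the diagonal, and the members lie at its edge.

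Some members sat close to the limits. Others lay further inside, such as spot 157045 with 1.33 in leaf cold, at most 0.20 in size in root cold and 0.39 in leaf salt at 27 h. The positive members nearest to the leaf limit had mean leaf cold differences of 0.761, 0.764 and 0.776, and the nearest spots outside it had 0.749, 0.748 and 0.741. In root cold the largest of the 3 sizes was 0.492, 0.482 and 0.480 in the members nearest to the limit, and 0.503, 0.516 and 0.538 in the nearest spots outside it. All 3 of these outside spots are duplicate prints of members (spots 152934, 154283 and 145774), so the limit divided spots that carry the same print. At the salt limit the nearest members had 0.749, 0.739 and 0.736 and the nearest spots outside had 0.764, 0.770 and 0.954. The 3 negative members had leaf cold sizes of 0.754, 0.827 and 0.909, and the nearest negative spots outside the leaf limit had 0.745, 0.743 and 0.736.

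Most spots on this array were printed as duplicates at fixed row distances. No label states this layout, which was read from the values, and all 905 accessions that the gene table lists at 2 spots fell on it. The 28 members fall in 23 duplicate pairs, of which 20 are positive, and 5 pairs have both spots among the members (131802 with 132646, 135103 with 135947, 136766 with 137610, 148108 with 148952 and 150489 with 151333). Members that share a pair are not separate genes, so counts of members are counts of spots. Over the arrays the log2 ratios of a member and its duplicate correlated with r from 0.75 to 0.99, with a median of 0.92.

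The other 18 duplicates were not members. There were 4 with too few values, 9 past a root limit, 5 below the leaf limit and 2 past the salt limit, and some failed on more than one count. The 14 of them that were usable all had a leaf cold difference of the same sign as their member, with sizes from 0.52 to 1.21. Their root cold differences reached 0.60 in size, so the same print could show a root difference on the other side of the limit.

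**Figure D2:**
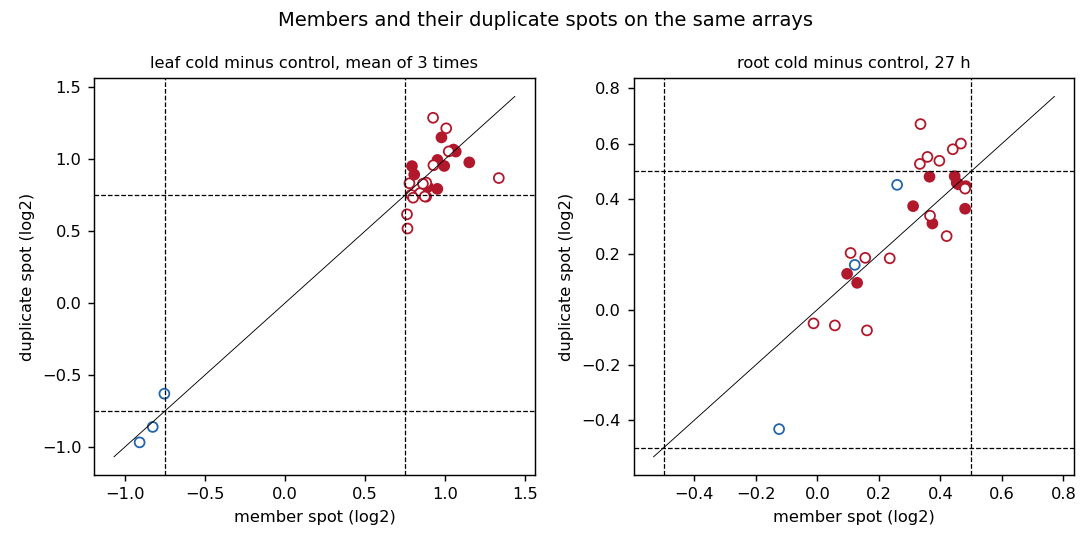
Each member (horizontal axis) against its duplicate spot on the same arrays (vertical axis), for the mean leaf cold difference (left) and the root cold difference at 27 h (right), in log2 units. Red is positive and blue negative, filled points are pairs with both spots among the members, dashed lines are the limits and the solid line marks equal values. Open points lie on both sides of the limits.

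Spot 157045 had the largest mean leaf cold difference of the positive members. Its log2 ratios on the leaf cold arrays were 0.84, 0.75 and 1.01 at 3 h, 0.63 and 0.28 at 9 h (1 array had no value), and 0.16, 0.43 and 0.77 at 27 h. Its leaf control arrays read -0.84 and -0.56 at 3 h, -0.53 and -1.15 at 9 h, and -0.69 and -0.69 at 27 h, each with 1 array missing. No cold array overlapped the controls at any time. The differences were 1.56, 1.30 and 1.15 at 3, 9 and 27 h. In root, cold arrays read 0.12, -0.53 and -1.15 at 27 h and control arrays -0.12, -0.56 and -1.06, a difference of 0.06 beside a wide spread between experiments.

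Spot 148108, the member with the next largest mean (1.15), and its duplicate 148952 (0.98) behaved much like 157045. On spot 148108 the leaf cold arrays at 3 h read 0.96, 0.75 and 1.08 and the controls -1.03 and -0.60, again with 1 control missing. The largest leaf cold difference was at 3 h on all 3 spots (1.74 for 148108, 1.48 for 148952). Across the arrays 157045 correlated with 148108 at r = 0.92 and with 148952 at r = 0.90, although it belongs to another pair. These correlations describe shared arrays and carry no test.

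These 3 spots shared a further feature, in that unstressed arrays did not read near 0. The control means of 157045, 148108 and 148952 ran from -0.84 to -0.38 in leaf and from -0.67 to -0.28 in root. On these spots the group means of leaf cold lay above 0 and those of leaf controls below it. Among all 25 positive members, group means of control arrays ran from -0.84 to 0.32 with a median of -0.05, and 15 spots had at least 1 of their 6 control groups at 0.25 or more from 0. Control and reference were both unstressed plants, and the part of such offsets in the cold differences was not tested.

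The pair 137610 and 136766 and the spot 152934 had a second profile. On 137610 the leaf cold arrays read 0.75, 1.03 and 1.18 at 3 h, 1.55, 0.80 and 1.43 at 9 h, and 0.63, 1.28 and 1.77 at 27 h. Its leaf controls read 0.00, 0.06 and 0.28 at 3 h, 0.12, -0.01 and 0.28 at 9 h, and -0.17, -0.15 and 0.43 at 27 h. Cold and control arrays did not overlap at any of the 3 times, and both were spread most at 27 h. The mean leaf cold differences were 1.07 for 137610, 1.05 for 136766 and 1.02 for 152934, and 152934 correlated with the pair at r = 0.90 over the arrays.

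The pair 135947 and 135103 had controls near 0 in both tissues. Leaf cold arrays of 135947 read 1.42, 0.92 and 0.90 at 3 h, 1.46, 1.55 and 1.20 at 9 h, and 1.04, 0.84 and 0.18 at 27 h, against controls between -0.17 and 0.20. At 27 h the array of experiment 3 was the low one on both spots of the pair. Mean leaf cold differences were 0.99 and 0.95, largest at 9 h (1.32 and 1.22).

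**Figure D3:**
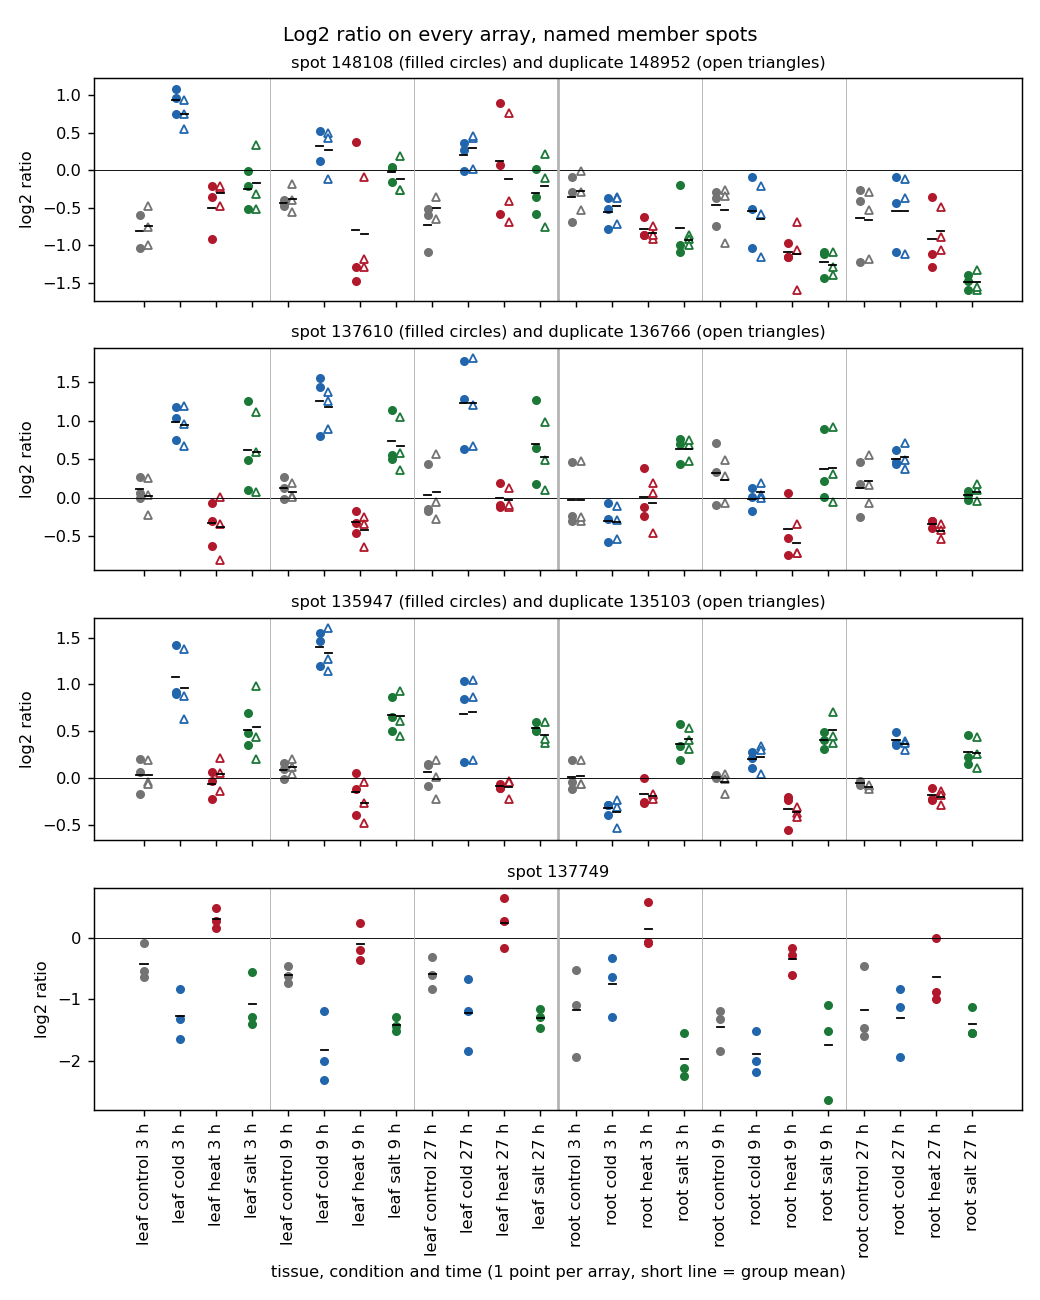
Deposited log2 ratio on every array for 3 duplicate pairs of positive members and for the negative member 137749, with groups along the horizontal axis (grey control, blue cold, red heat, green salt), leaf left and root right of the thick line. Each point is 1 array and the short line is the group mean. Leaf cold arrays stand above the leaf controls in the upper 3 panels, and root cold arrays lie among the root controls in many groups.

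The remaining spots among the 12 largest were 132441, 131802, 145774 and 150549, with mean leaf cold differences of 1.01, 0.95, 0.93 and 0.92. Spot 132441 had the widest spread: its leaf cold arrays at 9 h read -1.32, 2.03 and 1.18, so the array of experiment 1 lay below all 3 controls (0.29, -0.69 and -0.07). Spot 150549 had its largest difference at 9 h, 1.51, from 2 cold arrays at 1.45 and 1.61 and 2 controls at -0.07 and 0.11.

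Timing in leaf cold differed between members. The largest of the 3 differences was at 3 h for 11 positive members, at 9 h for 8 and at 27 h for 6. Medians over the 25 were 0.93, 0.90 and 0.94 at 3, 9 and 27 h. All cold arrays lay above all controls for 21, 19 and 24 of the 25 at these times, against 19%, 19.4% and 19.7% of all usable spots, and these arrays chose the members. The difference between 27 h and 3 h came from the same leaf cold arrays and is also only set beside its background. It passed the limma threshold for 1 of the 25, spot 155768, where 0.699% of all 15601 spots tested in leaf were called positive and 0.814% negative, and nothing is read from that count. Spot 155768 read -0.56, 0.32 and 0.37 in the cold at 3 h, on both sides of its controls (0.10, 0.03 and -0.27), and 1.32, 1.26 and 0.95 at 27 h against controls of -0.15, -0.17 and 0.03. The difference between the times was 1.18 (SE 0.28), given as a description because these arrays chose the spot.

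In root cold the members were small by choice, but not flat. The medians of the positive members were -0.20, 0.05 and 0.36 at 3, 9 and 27 h, and 8, 17 and 24 of the 25 were above 0. At 27 h the root cold arrays lay above all controls for 9 members, where 23.8% of all usable spots did so. The 95% interval of a root cold difference ran to a median of 0.43 on either side of the estimate, and reached the limit of 0.5 for 23, 18 and 23 of the 25 at 3, 9 and 27 h. These data therefore do not show the members to be unchanged in root cold, only that each difference was under 0.5. The other 695 spots past the positive leaf limit had medians of 0.04, 0.82 and 1.17 in root cold.

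The choice was repeated 3 times with an experiment left out, and the spots so chosen were read in that experiment. The experiment left out did not enter the differences used in the choice, but its values counted in the filter for usable rows. The limits were chosen with earlier results of these data known. Choosing without experiment 1, 2 and 3 gave 19, 31 and 34 positive spots, of which 14, 16 and 17 were members of the full choice. Their median leaf cold difference in the experiment left out was 0.76, 0.91 and 0.73. All of the spots with values had the same sign there, 17 of 17, 29 of 29 and 30 of 30, and 9, 22 and 12 of them reached 0.75. The root limits held at all times in the experiment left out for 13 of 19, 10 of 27 and 10 of 34 spots. At 27 h the medians of their root cold differences there were 0.31, 0.43 and 0.33. The sign in leaf was found again in all of these spots with values, and the root limits held in a part of them. No share over other leaf cold spots is set beside these counts. Each left-out root difference is between 2 single arrays, while the left-out leaf value is the mean of such differences over 3, 9 and 27 h. The sign of a mean in leaf and a limit at each time in root are unlike criteria, so the 2 results are not compared. Why the root limits held in only a part of the spots was not tested. Of the 25 positive members, 6 were chosen in all 3 of these repeats and 2 in none. On the negative side the same choices gave 3, 5 and 16 spots, which shared 1, 0 and 2 of the 3 negative members. The spots with values kept their sign in the experiment left out, 2 of 2, 5 of 5 and 15 of 15, with medians of -0.96, -0.76 and -0.54. None of the 3 negative members was chosen in all 3 repeats, and 1 was chosen in none.

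**Figure D4:**
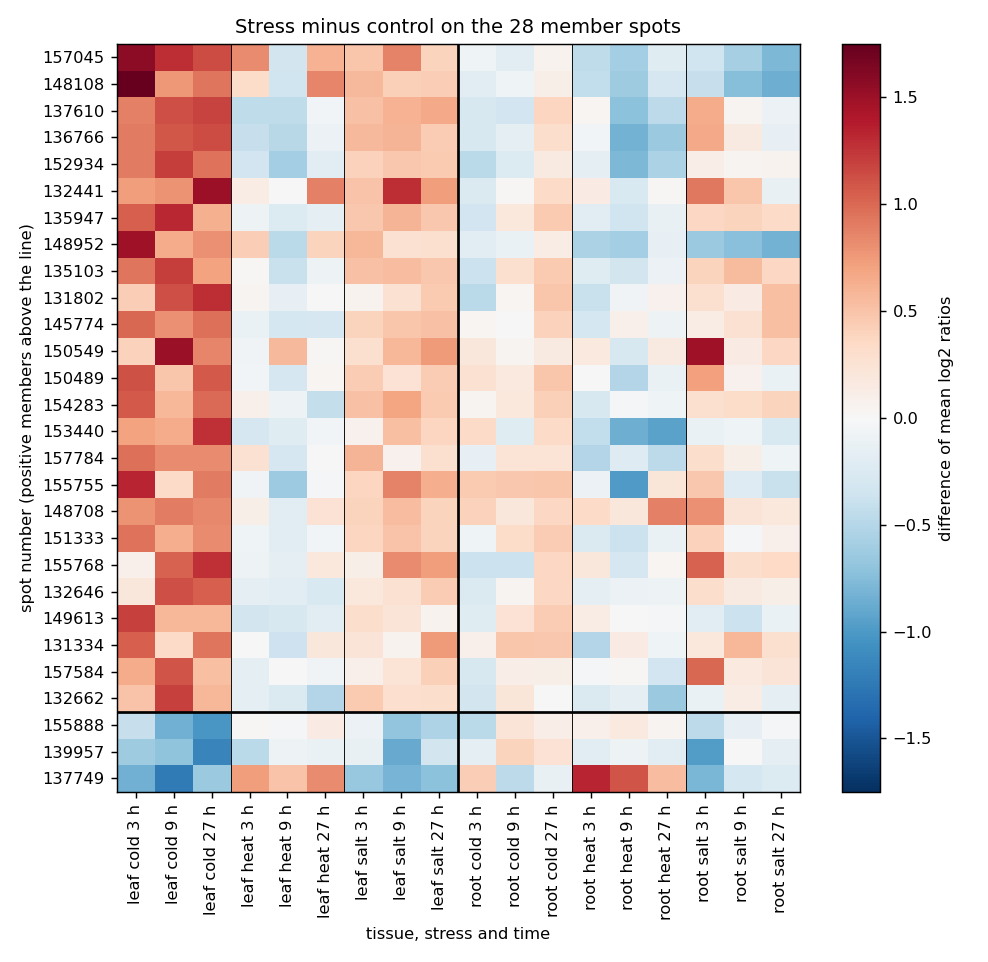
Difference of stress and control means (log2 ratio, colour) for the 28 member spots (rows, in order of mean leaf cold difference, positive above the line) in the 18 combinations of tissue, stress and time (columns). Leaf cold columns are red for positive members by choice. Leaf salt columns are also red, leaf heat is mostly pale or blue, and root salt at 3 h ranges from blue to red.

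In leaf salt the positive members had positive differences throughout. All 25 were above 0 at 3, 9 and 27 h, with medians of 0.40, 0.49 and 0.44, the last held under 0.75 by the rule. On spot 135947 the salt arrays read 0.49, 0.70 and 0.36 at 3 h and 0.65, 0.86 and 0.51 at 9 h, all above its controls (-0.17 to 0.20). On spot 154283 the salt differences were 0.51 and 0.69 at 3 and 9 h. Over 3 and 9 h, 6 of the 25 were called positive and 0 negative, where 4.51% and 3.67% of the 15601 spots were called. The smallest adjusted p were those of 154283 (0.60, SE 0.13, limma adjusted p = 0.00303), 135947 (0.53, SE 0.12, adjusted p = 0.00490) and 135103 (0.53, SE 0.14, adjusted p = 0.0196). Spots 135947 and 135103 are duplicates of each other. Of the other 695 leaf cold positive spots, 44.5% were called positive, with a median of 0.50 against 0.44 in the members. Leaf salt and leaf cold share the leaf control arrays, which chose the members, so the sign is not independent of the choice. The count fell to 1 without experiment 2, to 3 without experiment 3, and to 3 without leaf control replicate 2 at 3 h, leaf control replicate 2 at 9 h, leaf salt replicate 3 at 3 h or leaf salt replicate 2 at 9 h.

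Leaf heat gave small differences. The medians of the positive members were -0.07, -0.29 and -0.04 at 3, 9 and 27 h, and at 9 h 22 of 25 were below 0. In the mean over the 3 times 0 of 25 passed the threshold in limma, where 4.06% of all tested spots were called positive and 3.35% negative. An unadjusted limma p under 0.05 was found for 4 of the 25 and for 3503 of all 15601 spots. On 137610 the heat arrays read -0.30, -0.62 and -0.07 at 3 h and -0.32, -0.45 and -0.17 at 9 h, below all of its controls. The mean over the 3 times was -0.31 (SE 0.16) there, and did not pass (limma adjusted p = 0.254). Leaf heat and leaf cold share the leaf control arrays, which chose the members, so leaf heat differences are not independent of the choice.

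Leaf salt minus leaf heat uses no control array and no array of the rule, so it can be tested on the members. All 25 positive members were above 0 over 3 and 9 h, with a median of 0.57 and a range of 0.17 to 1.02. In limma 14 were called positive and 0 negative, where 8.95% and 8.15% of the 15601 spots were called. Spot 136766 had salt arrays at 0.60, 0.07 and 1.11 at 3 h and at 1.05, 0.59 and 0.37 at 9 h. Its heat arrays read -0.34, -0.81 and 0.01 at 3 h and -0.25, -0.64 and -0.34 at 9 h, so salt lay above heat on every array. The difference was 1.02 (SE 0.19, adjusted p = 0.000305), the largest of the members. For 135947 it was 0.70 (SE 0.12, adjusted p = 0.000127) and for 149613 it was 0.57 (SE 0.11, adjusted p = 0.000496). The other 695 leaf cold positive spots were called in 60.0% of cases with a median of 0.60, against 56% and 0.57 in the members. The count was 9 without experiment 2. The 14 hold both spots of the pairs 137610 with 136766, 135947 with 135103 and 150489 with 151333, so they stand for fewer genes.

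**Figure D5:**
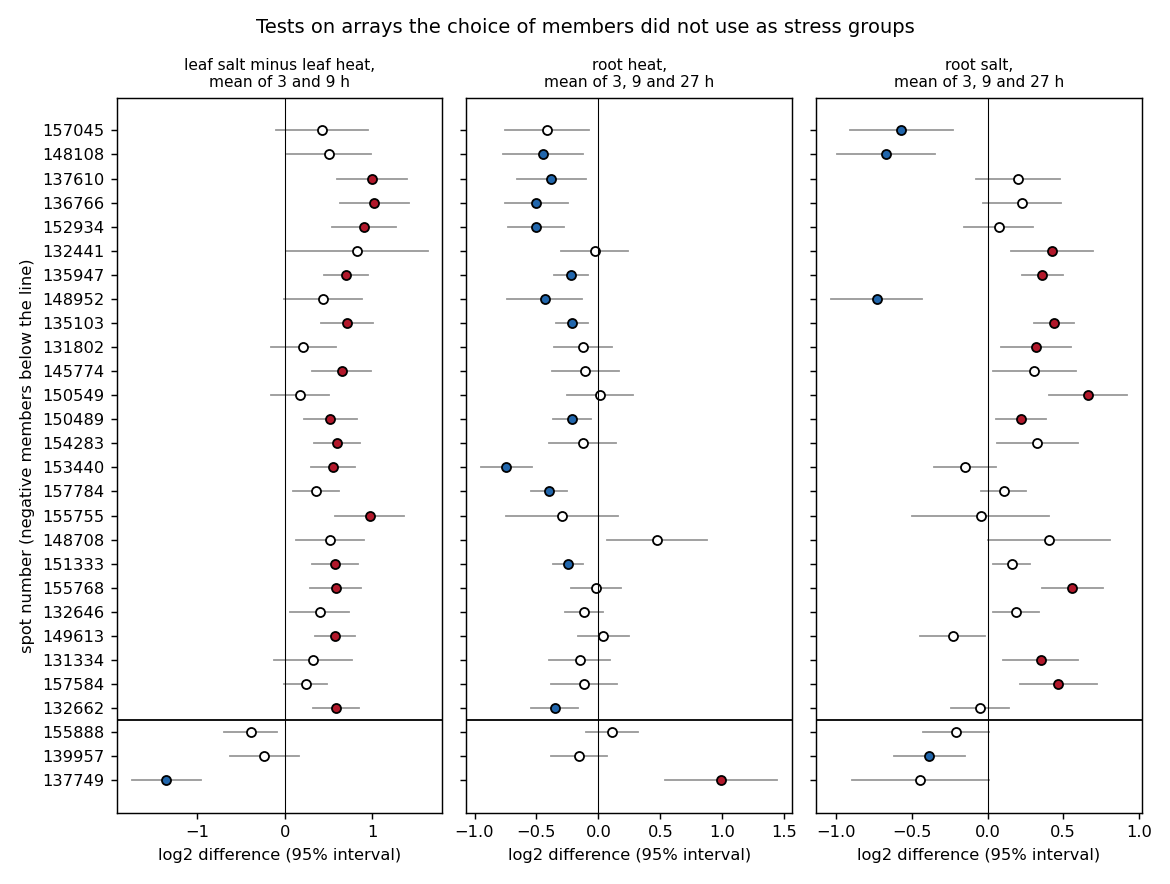
Log2 difference of each member with its 95% interval for leaf salt minus leaf heat (3 and 9 h), root heat (3, 9 and 27 h) and root salt (3, 9 and 27 h), spots on the vertical axis. Filled points passed the limma threshold of 0.05 after adjustment over all tested spots, red positive and blue negative, and open points did not. All 25 positive members lie above 0 on the left, 12 are called negative in root heat, and root salt has calls in both directions.

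The members were also read in root heat and root salt. Of the 25 positive members, 19 (76%) were called in at least 1 of these 2 root tests and 5 (20%) in both, where 48.1% of all 14866 spots tested in root were called in at least 1 and 10.4% in both. The combined share for the other 695 leaf cold positive spots is not given, so these counts are not read as particular to the members. The root tests use the root controls, which also entered the choice through root cold.

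In root heat the mean difference was below 0 in 22 of the 25. Spot 153440 read -0.84, -0.89 and -0.51 at 3 h, -1.32, -0.92 and -0.97 at 9 h, and -0.999, -1.22 and -0.94 at 27 h in heated root. Its root controls read -0.40, -0.43 and -0.10 at 3 h, -0.10, -0.47 and -0.07 at 9 h, and 0.25, -0.12 and -0.47 at 27 h, so heat and control did not overlap at any time. Its mean difference was -0.74 (SE 0.10, limma adjusted p = 2.88e-06). Over the 3 times 12 of 25 positive members were called negative and 0 positive, where 16.4% and 17.1% of the 14866 spots were called, with a median of -0.21 over the 25. Spot 157784 (-0.40, SE 0.07, adjusted p = 0.000120) and spot 152934 (-0.51, SE 0.11, adjusted p = 0.000792) followed. Of the other 695 leaf cold positive spots, 25.0% were called negative and 9.64% positive, with a median of -0.09. At 9 h the heat arrays lay below all controls for 13 of the 25, where 13.9% of all usable spots did so. The count of 12 was 5 without experiment 1 and 7 without experiment 2. It holds both spots of the pairs 148108 with 148952, 137610 with 136766, 135947 with 135103 and 150489 with 151333, so it stands for fewer genes.

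In root salt the members split. Among the 25, 9 were called positive and 3 negative, where 13.5% and 11.5% of the spots tested were called, and the median was 0.22. On 135103 the salt arrays read 0.41, 0.31 and 0.54 at 3 h, 0.71, 0.38 and 0.45 at 9 h, and 0.44, 0.11 and 0.26 at 27 h, against root controls between -0.17 and 0.19. Salt and control did not overlap within any time, and the mean difference was 0.44 (SE 0.06, adjusted p = 8.84e-06). Spot 155768 (0.56, SE 0.10, adjusted p = 0.000111) and spot 135947 (0.36, SE 0.07, adjusted p = 0.000182), the duplicate of 135103, followed. Of the other 695 leaf cold positive spots, 52.7% were called positive and 4.17% negative, with a median of 0.38.

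Positive calls in root salt were most frequent at 3 h, though the times were not tested against each other. At 3 h alone 10 of 25 were called positive (11.9% of all tested spots), at 9 h 2 (2.96%) and at 27 h 0 (1.58%). The median was 0.31 at 3 h, 0.14 at 9 h and 0.06 at 27 h. The largest value was on spot 150549, whose salt arrays read 0.96, 1.56 and 1.57 at 3 h against controls of 0.03, -0.22 and -0.17, a difference of 1.48 (SE 0.21, adjusted p = 1.73e-05). By 9 h the same spot read 0.49, 0.54 and 0.03.

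The 3 negative root salt calls were the duplicates 148952 and 148108 and the spot 157045, the group with the large leaf cold differences at 3 h. On 148952 root salt arrays read -0.86, -0.92 and -0.999 at 3 h, -1.09, -1.29 and -1.40 at 9 h, and -1.60, -1.32 and -1.56 at 27 h. Its root controls read -0.53, -0.29 and -0.01 at 3 h, -0.27, -0.97 and -0.34 at 9 h, and -0.53, -0.29 and -1.18 at 27 h, so salt lay below all controls at each time. The mean differences were -0.73 (SE 0.15, adjusted p = 0.000542), -0.67 (SE 0.16, adjusted p = 0.00235) and -0.57 (SE 0.17, adjusted p = 0.0120). The 12 root salt calls became 6 without experiment 2.

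The direct tests of leaf against root made few calls. For heat, 1 of 25 positive members was called, spot 153440 (leaf minus root 0.56, SE 0.14, limma adjusted p = 0.0393), where 0.685% of 13585 spots were called positive and 0.346% negative. For salt over 3 and 9 h, 1 was called, spot 148952 (1.11, SE 0.29, adjusted p = 0.0318), where 0.662% were called positive and 0.847% negative. The first call was lost without any 1 of 18 of the 36 arrays compared, and the second without any 1 of 10 of 24. Both contrasts use leaf and root control arrays that also entered the choice of members, through a large leaf and a small root difference, so their sign is not independent of the choice. The largest leaf minus root differences of the 25 were on a spot that was not called, 157045, with 0.78 in heat and 1.14 in salt. A call therefore does not mark the largest difference. The members not called are not shown to differ between the tissues in heat or salt, nor to respond alike.

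Some members stood outside these patterns, and were picked out after their values were seen. Spots 148708 and 132646 were called in none of the 8 tests. Spot 132646 is the duplicate of 131802, which was called in root salt (0.32, SE 0.11, adjusted p = 0.0399), while 132646 had differences of 0.31, 0.16 and 0.10 at 3, 9 and 27 h. Spot 148708 was the positive member with the highest root heat mean, 0.47. Its root heat arrays at 27 h read 2.28, 0.12 and -0.12 against controls of -0.15, -0.01 and -0.20, a difference of 0.88 that came mostly from the array of experiment 1. Without that array the difference at 27 h was 0.12 and the mean over the 3 times 0.22. Couples of positive members that are not duplicates correlated over the 72 arrays with a median r of 0.56, from 0.17 to 0.92 in 295 couples, all measured on the same arrays.

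The 3 negative members had unlike profiles. On spot 137749 the leaf cold arrays read -1.64, -0.84 and -1.32 at 3 h, -1.18, -2.32 and -2.00 at 9 h, and -0.67, -1.18 and -1.84 at 27 h. Its leaf controls read -0.64, -0.09 and -0.53 at 3 h, -0.62, -0.45 and -0.74 at 9 h, and -0.30, -0.60 and -0.84 at 27 h, so cold and control overlapped at 27 h. Its root controls had group means of -1.18, -1.45 and -1.17, far below 0. In heat this spot moved the other way in both tissues, by 0.69 in leaf (SE 0.16, limma adjusted p = 0.00676) and 0.99 in root (SE 0.22, adjusted p = 0.00101). In leaf salt it moved by -0.73 (SE 0.20, adjusted p = 0.0172), and leaf salt minus leaf heat was -1.35 (SE 0.20, adjusted p = 1.05e-05). The differences against controls use control arrays that also entered the choice of members, while leaf salt minus leaf heat does not. The root cold differences of 137749 were 0.43, -0.45 and -0.12 at 3, 9 and 27 h, and its duplicate failed the root limit at 9 h with -0.58.

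Spot 139957 read -0.58, -0.67 and -0.89 in leaf cold at 3 h against controls of -0.09, -0.10 and -0.06, and had only 65 of 72 values. Its root salt difference was -0.39 (SE 0.11, limma adjusted p = 0.0145), mostly from 2 arrays at 3 h (-1.09 and -0.51). Spot 155888 read -1.12, -1.03 and -0.92 in leaf cold at 27 h against controls of -0.03, 0.06 and -0.03. It was called in none of the 8 tests, with 0.04 in leaf heat and -0.39 in leaf salt. For negative members the backgrounds of these calls are those given above for the same directions. All 3 negative members had negative leaf salt differences at each time, and none of the 3 was shown to share a profile with another.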

How the data were processed

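The deposited file holds log2 ratios for 32448 spots on 72 arrays. Per the submitters' processing notes limma was used, with no role or version given. How arrays were scanned, corrected and normalized, and why cells are empty, is not given in the sources used here. Log2 ratios were used as deposited. Without intensities, signal over background is unknown; the array number limits precision. The labels name a column kit in the description and a phenol or trizol extraction in the protocol field. Labels gave group and experiment.

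Members were found from group means. Tests used lmFit and eBayes of limma 3.58.1 (R 4.3.3) on all 36 arrays of a tissue, or all 72 for leaf against root, with Benjamini-Hochberg adjustment over 15601 spots in leaf, 14866 in root and 13585 in both, at 0.05. The fit was tested on simulated data. Members, limits and comparisons were chosen with earlier results of these data known.

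The experiment number pairs the arrays per the labels, since the whole experiment was repeated independently and arrays of a number, tissue and time have a common reference. Deviations of same-numbered stress and control arrays correlated at -0.04 to 0.50 (median 0.20, 54 pairs). The pairing was an alternative, as were other scalings, filters, limits, averaged duplicates and left-out arrays. The gene table holds 1810 spots, 1630 with 1 symbol and 180 with several, but 0 of the 28 members, so gene lists could not be applied. The rule for names therefore took spot numbers: the 12 of largest mean leaf cold difference per sign, and up to 3 of smallest adjusted p per test and sign. With no gene table at all it would have named at most 2 spots per sign. Other spots named were chosen after their values were seen.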

Additional observations from a re-analysis of the deposited data

Results flagged for a closer look

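Spot 153440 differed between leaf and root in heat (leaf minus root 0.56, SE 0.14, limma adjusted p = 0.0393), with -0.19 in leaf and -0.74 in root. The leaf and root control arrays of this contrast, and of the salt contrast on spot 148952, also entered the choice of members, so the sign is not independent of that choice. The call was lost without leaf control replicates 2 or 3 at 3 h, 2 or 3 at 9 h or 3 at 27 h, leaf heat replicates 2 or 3 at 3 h or 9 h, root control replicates 3 at 3 h, 1 or 3 at 9 h or 1 or 2 at 27 h, or root heat replicates 1 or 2 at 3 h, 1 at 9 h or 1 at 27 h.

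Spot 148952 differed between leaf and root in salt over 3 and 9 h (1.11, SE 0.29, limma adjusted p = 0.0318). The call was lost without leaf control replicates 2 or 3 at 3 h or 3 at 9 h, leaf salt replicates 1 at 3 h or 3 at 9 h, root control replicates 3 at 3 h or 1 or 3 at 9 h, or root salt replicates 2 or 3 at 9 h. On this spot each leaf array was above its same-numbered control and each root array below its own in heat at 3 h (leaf 0.44, root -0.56, apart by 0.996), and likewise in salt at 3 h (leaf 0.58, root -0.65, apart by 1.22). Its duplicate 148108 did so in salt at 9 h (leaf 0.41, root -0.75, apart by 1.16), and spot 157784 in heat at 3 h (leaf 0.27, root -0.52, apart by 0.788). These 4 single-time differences were picked from all 28 members in heat at 3, 9 and 27 h and in salt at 3 and 9 h. Those of 148952 and 148108 come from 1 duplicate pair. The share of all usable spots with such opposite arrays is not given, and the 4 differences were not tested. Among the 25 positive members the largest leaf minus root differences were on spot 157045, 0.78 in heat and 1.14 in salt, and neither was called.

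Spot 155768 had leaf cold differences apart by 1.18 between 27 h and 3 h. This value came from the arrays that chose the spot, so it is a description and no test of it is relied on.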

How the results depend on the processing

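The number of members moved with its limits. With a leaf limit of 1 there were 6 positive and 0 negative members, with a root limit of 0.25 there were 5 and 0, and with no salt limit 51 and 23. Quantile scaling gave 33 positive (5 shared with the 25) and 17 negative (1 shared with the 3), centring 22 and 5, a demand for 3 values in every group 16 and 1, and averaged duplicates 14 and 1 pairs. Leaving out an experiment gave 19 to 34 positive and 3 to 16 negative members. Leaving out a single array gave 19 to 39 positive (39 without leaf cold replicate 1 at 27 h) and 1 to 9 negative members. With the replicate block there were 26 and 2.

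Among the tests on positive members, leaf heat had 2 calls with the compared groups alone, 3 with quantile scaling and 2 with averaged duplicates, and 1 without leaf control replicate 3 at 9 h or leaf heat replicate 2 at 3 h. Leaf salt had 11 calls with the compared groups alone, 1 to 4 without an experiment and 3 to 7 without an array. Leaf salt minus leaf heat had 9 to 16 calls without an experiment and 13 to 18 without an array. Leaf cold at 27 h minus 3 h, from arrays that chose the members, had 0 calls with the compared groups alone, 0 with quantile scaling, 2 with averaged duplicates, 0 without any experiment and 0 to 1 without an array. Root heat had 5 to 9 calls without an experiment and 8 to 12 without an array, and root salt 6 to 11 and 8 to 13. Heat in leaf minus root had 0 calls with 3 values in every group, 0 without any experiment and 0 to 1 without an array. Salt in leaf minus root had 3 with the compared groups alone, 2 with quantile scaling, 0 with 3 values, 0 to 3 without an experiment and 0 to 4 without an array (4 without root salt replicate 1 at 3 h). With the replicate block, leaf salt had 8 calls and leaf salt minus leaf heat 17, and all 52 checks of single called spots kept their call. Of these single calls 11 of 52 were lost with quantile scaling and 191 with arrays left out (787 kept), and none changed sign in any setting run. For counts under other settings, here and above, the share of all spots called is not given, so they are not compared with a background. The cause of these shifts was not tested. Signal over background was unknown, so how dim spots limit these values was not tested.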
